A study of Homo sapiens with 4 samples.

Results

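The spliceosomal snRNP protein genes were 53 of the 60671 genes measured by RNA-seq in H9 cells, an established line of human embryonic stem cells, and 52 of them are described here. They were chosen by symbol: the 7 Sm ring genes (SNRPB, SNRPD1, SNRPD2, SNRPD3, SNRPE, SNRPF and SNRPG), SNRPA, SNRPA1, SNRPB2, SNRPC, LSM1 to LSM8, U2AF1, U2AF2, EFTUD2, DDX23, DDX46, and every gene whose symbol was SNRNP, SF3A, SF3B or PRPF followed by a number. The rule uses no measured value, but it was written with earlier results of these data known. The 4 libraries formed 2 groups of 2, all grown in mTeSR medium without treatment. The control group was H9 cells with the genotype control, and the study describes clones carrying an empty editing vector as its mock controls. The other group, called KO+OE here, had an edited CFIm25 gene and is labelled as overexpressing 3Flag-CFIm25. The labels write both KO and KD for the edit, and the study describes a clone that kept a little N-terminally shortened protein, into which the tagged protein was brought by a lentivirus with an EF1 promoter. KO+OE therefore stands for a single edited clone, and edited cells without the tagged protein were not analysed here. Nothing in the labels says that the libraries of a group came from separate cultures, so p-values measure only the spread between these libraries. The question was whether subunits of a complex stood at like RNA levels, and whether any of them differed between the groups.

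Introns are removed by the spliceosome, which is built from small nuclear ribonucleoproteins (snRNPs), each a small nuclear RNA with its proteins. U1 snRNP binds the start of the intron, U2 snRNP binds the branch point, and the U4/U6-U5 tri-snRNP joins before catalysis. U1, U2, U4 and U5 RNA carry a ring of Sm proteins with 1 copy of each, and U6 RNA carries a ring of related LSM proteins. CFIm25, encoded by NUDT21, belongs to cleavage factor I, which helps to choose the site where an mRNA is cut and polyadenylated.

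The deposited values were read as TPM, the share of all transcripts that belongs to a gene, corrected for transcript length and scaled to a common total. TPM keeps no read counts, so the depth of the libraries is unknown. The libraries held 12179 to 12332 genes at 1 TPM or more. Of 10 stem cell markers, 9 were at 1 TPM or more in every library, and the 4 mesoderm markers stayed below 1 TPM. Among markers listed for other cells, NES, GATA6, COL1A1, COL1A2 and THY1 were above 1 TPM in every library, while SOX17 and LUM were listed at 0. The summed level of the markers listed for fibroblasts was 1297 to 1420 TPM, and nearly all of it was THY1, at 1228 to 1352 TPM. COL1A1 was 53.9 to 55.6 TPM and COL1A2 13.0 to 14.5 TPM. The sum was therefore not read as a measure of fibroblasts, and its part in the results was not tested. NUDT21 was 161 and 152 TPM in control and 162 and 157 TPM in KO+OE, with overlapping groups (log2 fold change 0.03, 95% confidence interval -0.09 to 0.14, limma adjusted p = 0.980). NUDT21 RNA was therefore not higher in KO+OE beyond the spread, and it does not check the label of overexpression. By western blot, the study describes re-expressed CFIm25 protein as close to the endogenous amount, not far above it.

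All 52 genes were above 0 TPM in every library. Their mean levels had a median of 52.6 TPM, against 7.77 TPM for the 12319 genes that reached a mean of 1 TPM. A mean of 100 TPM or more was reached by 16 members, 26 lay from 10 to 100 TPM, 7 from 1 to 10 TPM and 3 below 1 TPM. Together they took 0.628% and 0.625% of the listed TPM in the control libraries and 0.622% in each KO+OE library. Genes of the mitochondrial genome took 21.0% and 21.1% of the listed TPM in control and 21.6% and 22.1% in KO+OE. A share of a fixed total falls when another part rises, and the members' share of nuclear TPM was not computed. In 36 members the highest library was less than 1.2 times the lowest, and in 6 it was more than 1.5 times the lowest. The plot of levels by complex shows how far the subunits of most complexes stood from each other.

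**Figure D1:**
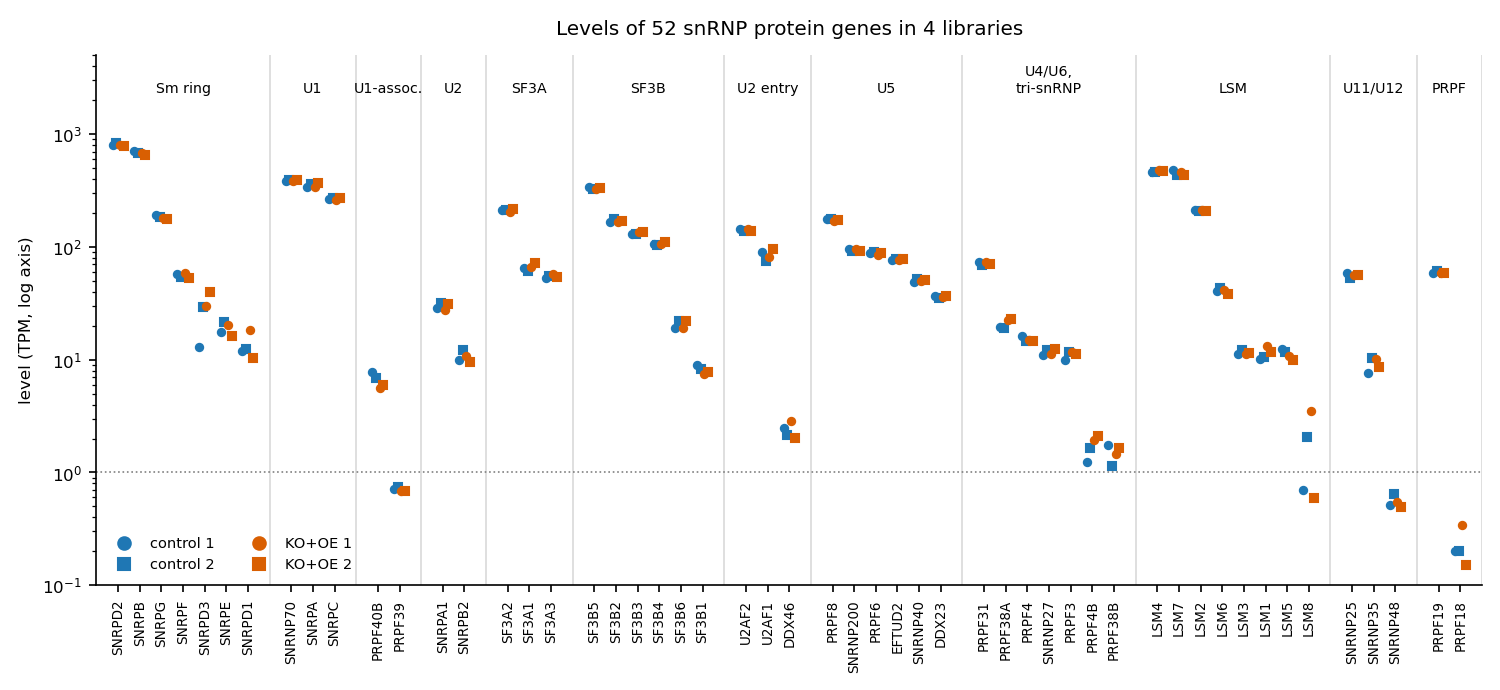
Level of each of the 52 genes in TPM on a log axis, grouped by complex, with 1 point per library (blue control, orange KO+OE; circles replicate 1, squares replicate 2). The 4 points of a gene mostly lie together, while genes of a complex lie far apart, from 805 TPM (SNRPD2) to 13.3 TPM (SNRPD1) on average in the Sm ring.

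The Sm ring was the first complex examined, because its 7 proteins are used in equal number. Coding sequence is shown for these genes because their levels and their codons differed widely. Each line is the first 60 coding bases of the canonical GENCODE release 44 transcript, 5′ to 3′, and capitals mark G or C at the third position of a codon. The genes are in order of mean level.
SNRPD2: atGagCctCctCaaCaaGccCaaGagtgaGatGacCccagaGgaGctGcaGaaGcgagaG
SNRPB: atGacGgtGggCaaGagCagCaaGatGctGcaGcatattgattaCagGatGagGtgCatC
SNRPG: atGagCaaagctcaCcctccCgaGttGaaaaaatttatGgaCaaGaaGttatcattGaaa
SNRPF: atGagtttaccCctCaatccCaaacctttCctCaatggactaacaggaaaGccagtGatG
SNRPD3: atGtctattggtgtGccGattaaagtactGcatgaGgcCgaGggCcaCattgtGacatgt
SNRPE: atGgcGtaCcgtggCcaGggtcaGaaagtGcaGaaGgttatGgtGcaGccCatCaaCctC
SNRPD1: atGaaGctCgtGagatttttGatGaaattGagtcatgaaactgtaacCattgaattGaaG

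SNRPD2 was the highest Sm gene, at 803 and 830 TPM in control and 797 and 792 TPM in KO+OE. SNRPB, which encodes SmB and SmB′, was next, at 713 and 684 TPM in control and 685 and 648 TPM in KO+OE. These 2 genes stood apart from the rest of the ring in all 4 libraries. SNRPG was 190 and 183 TPM in control and 179 and 177 TPM in KO+OE. SNRPF was 57.5 and 53.9 TPM in control and 58.2 and 53.3 TPM in KO+OE. SNRPE was 17.7 and 21.7 TPM in control and 20.5 and 16.3 TPM in KO+OE. SNRPE encodes the partner that forms a trimer with SmF and SmG during ring assembly, and its groups overlapped. The highest Sm gene was 60.6 times the lowest on average, and 43.2 to 76.3 times the lowest in single libraries. The libraries of neighbours in the order did not overlap in 4 of 6 cases. SNRPD3 overlapped with SNRPE, and SNRPE with SNRPD1. Multiplied by the length of the canonical transcript, the range was 29.3 and ran from SNRPB down to SNRPF. This takes the length correction back only if the authors used such lengths, and theirs are not given. All exons together cover 5153 bases for SNRPB and 2417 for SNRPF, against 1082 and 452 in the canonical transcript.

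In the Sm ring 2 genes varied most between libraries of the same group. SNRPE followed, with log2 differences between replicates of 0.283 in control and 0.310 in KO+OE. SNRPD3 encodes SmD3 and lies on chromosome 22 from 24555650 to 24574971 (RefSeq, GRCh38.p14). It was 13.0 and 29.2 TPM in control and 30.2 and 39.9 TPM in KO+OE. Control 1 was the low library, and the groups did not overlap, although control 2 and KO+OE 1 were nearly equal. A share of 0.454% of the 2864 genes within 2-fold of its mean level had a difference between replicates as large as its own (1.11 on the log2 scale). Its exons share 548 bases with those of AP000356.5, a gene on the same strand annotated as a readthrough of SNRPD3. In the GRCh37 annotation the shared bases are 14.0% of the exon bases of SNRPD3 and 17.4% of those of AP000356.5. AP000356.5 was 63.3 and 62.5 TPM in control and 61.5 and 58.9 TPM in KO+OE. The sum of both genes was 76.3 and 91.6 TPM in control and 91.7 and 98.7 TPM in KO+OE. For this sum the log2 fold change was 0.18, against 0.80 for SNRPD3 alone and -0.06 for AP000356.5 alone. AP000356.5 was the larger part of the sum in every library, so the sum moves less than SNRPD3 by itself. Whether reads were divided differently between them was not tested. SNRPD1, which encodes SmD1, was 11.9 and 12.4 TPM in control and 18.5 and 10.4 TPM in KO+OE, with KO+OE 1 the high library and the groups overlapping.

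SNRPN encodes SmN, a close relative of SmB that replaces it in some tissues, and was not among the members. It was 1345 and 1361 TPM in control and 1375 and 1394 TPM in KO+OE. SNRPN was thus 1.89 to 2.15 times SNRPB and above every Sm gene of the ring. The plot of relative levels sets the Sm ring beside complexes with narrower and wider ranges.

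**Figure D2:**
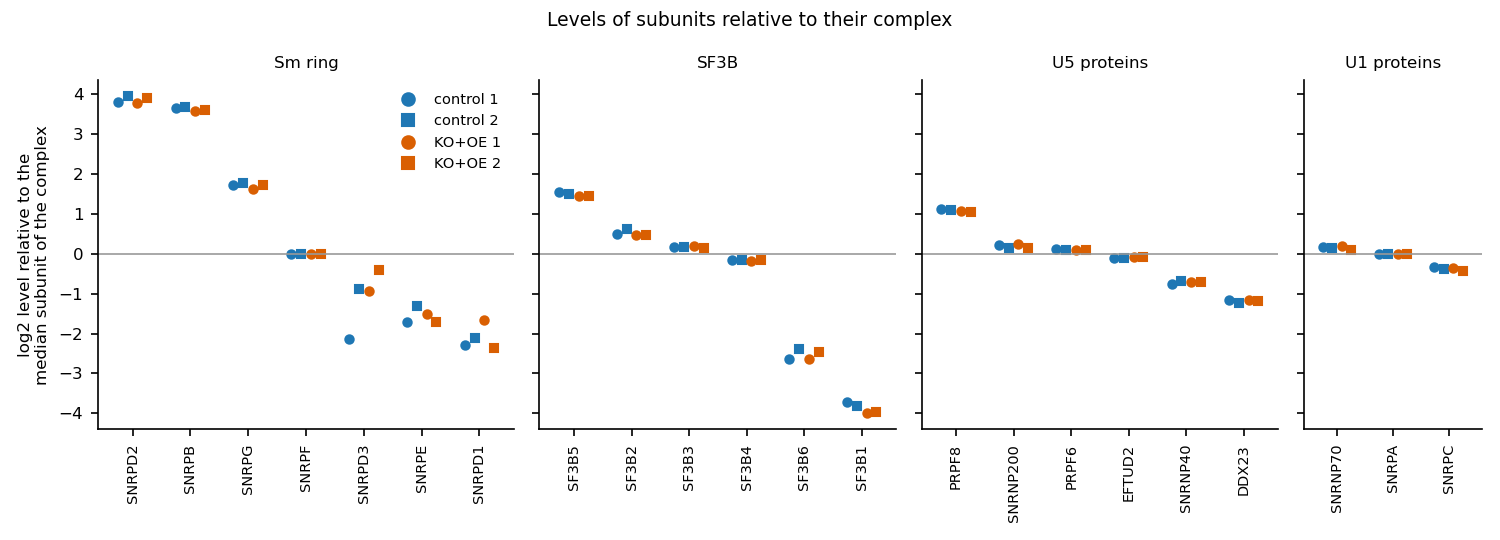
Level of each subunit relative to the median subunit of its complex in the same library (log2 scale, 0 is the median), with 1 point per library (blue control, orange KO+OE; circles replicate 1, squares replicate 2). The U1 proteins lie within a range of 1.45-fold and the U5 proteins within 4.77-fold, while the SF3B subunits span 40.9-fold and the Sm ring 60.6-fold.

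On the TPM scale the 3 U1 proteins had the narrowest range of the 8 complexes compared. TPM multiplied by canonical transcript length would follow reads and not transcripts only if the authors used such lengths, and theirs are not given. By that product the range was 3.00-fold for U1 and 2.23-fold for SF3A. It was 96.4-fold for SF3B, 15.6-fold for U5 and 37.6-fold for the nuclear LSM ring. SNRNP70, which encodes the U1-70K protein, was 382 and 395 TPM in control and 387 and 389 TPM in KO+OE. SNRPA, which encodes the A protein of U1, was 341 and 359 TPM in control and 338 and 366 TPM in KO+OE. SNRPC, which encodes the C protein that helps U1 to bind the 5′ splice site, was 268 and 273 TPM in control and 263 and 270 TPM in KO+OE. In all 4 libraries the order was SNRNP70, SNRPA, SNRPC, and the range was 1.43-fold to 1.47-fold. The U1-associated genes were far lower, with PRPF40B at 5.63 to 7.72 TPM and PRPF39 at 0.68 to 0.74 TPM.

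U2 snRNP has its own pair of proteins, encoded by SNRPA1 and SNRPB2, and the protein of SNRPB2 is a close relative of that of SNRPA. The start of the coding sequence is shown for SNRPA and SNRPB2 in the same form, since these related genes stood far apart in level.
SNRPA: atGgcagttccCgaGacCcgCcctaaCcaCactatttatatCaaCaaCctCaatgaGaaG
SNRPB2: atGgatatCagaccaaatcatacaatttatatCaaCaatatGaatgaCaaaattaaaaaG

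SNRPB2 was 10.03 and 12.1 TPM in control and 10.8 and 9.53 TPM in KO+OE. SNRPA was 29.6 to 38.5 times SNRPB2 in the 4 libraries, and G or C stood at the third position in 13 of the 20 codons shown for SNRPA and in 7 of 20 for SNRPB2. SNRPA1 was 28.8 and 31.6 TPM in control and 27.5 and 30.9 TPM in KO+OE. For SNRPA1, 59.8% of the 50-base words of its transcript also occur elsewhere in the GRCh37 genome, so its level depends on how repeated reads were counted. SNRPG had 54.1% such words, and no other member had over 25% in GRCh37. The search skipped places within a gene's own span, and in GRCh37 the copy U2AF1L5 lies on U2AF1. The 6.14% found for U2AF1 therefore leaves that copy out. The authors' labels name hg38, so these shares need not hold for their reads.

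SF3A and SF3B are the subcomplexes of U2 snRNP that hold the branch point. In SF3A, SF3A2 was 211 and 210.4 TPM in control and 202 and 215 TPM in KO+OE, and SF3A1 and SF3A3 lay between 52.5 and 72.5 TPM. SF3B5, a small subunit, was the highest SF3B gene at 326 to 341 TPM. SF3B1, the large scaffold around the branch point and a gene often mutated in blood cancers, was the lowest, at 8.92 and 8.24 TPM in control and 7.53 and 7.80 TPM in KO+OE. SF3B5 was 38.2 and 39.7 times SF3B1 in control and 43.3 and 43.0 times in KO+OE. The order of the 6 SF3B genes was the same in all 4 libraries, and no neighbours overlapped. DDX46, the helicase that works with U2 snRNP, stood at 2.01 to 2.87 TPM.

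The 3′ splice site is read by U2AF2, which binds the polypyrimidine tract, and by its partner U2AF1, which binds the AG. U2AF2 was 144 and 137 TPM in control and 144 and 138 TPM in KO+OE. U2AF1 was 89.95 and 74.9 TPM in control and 82.1 and 96.1 TPM in KO+OE. The table also listed U2AF1L5, a copy of U2AF1 with its own identifier, at 169 and 169 TPM in control and 168 and 146 TPM in KO+OE. In the GRCh37 annotation all exon bases of U2AF1L5 (100%) lie within exons of U2AF1. The share of the sum of both that was listed under U2AF1 was 34.7% and 30.7% in control and 32.8% and 39.7% in KO+OE. U2AF2 was 1.43 to 1.83 times U2AF1, but only 0.554 to 0.576 times the sum, so the order of the partners turns with the copy. The log2 fold change was 0.11 for U2AF1 and -0.03 for the sum, and how reads of U2AF1 were divided cannot be told from the table.

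**Figure D3:**
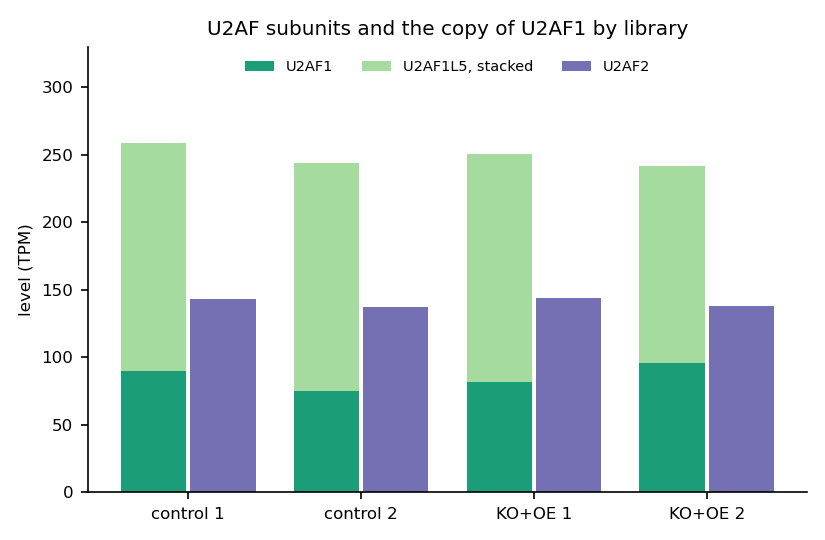
Levels in TPM by library of U2AF1 with its copy U2AF1L5 stacked on it (green) and of U2AF2 (purple). U2AF2 is above U2AF1 alone in every library and below the stack of both, which is 242 to 259 TPM.

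The U5 proteins had a steady order. PRPF8, the protein at the heart of the catalytic core, was 177 and 177 TPM in control and 170 and 172 TPM in KO+OE. It was followed by SNRNP200, the helicase that unwinds U4 from U6, then by PRPF6, EFTUD2 (a GTPase), SNRNP40 and DDX23. DDX23 lay between 35.6 and 37.02 TPM. That order was the same in all 4 libraries, no neighbours overlapped, and PRPF8 was 4.64 to 4.96 times DDX23. Of the U4/U6 proteins, PRPF31 lay between 69.7 and 73.7 TPM, above PRPF4 (14.8 to 16.1 TPM) and PRPF3 (9.95 to 11.8 TPM). PRPF19, the ubiquitin ligase of the complex that activates the spliceosome, was 58.4 to 61.0 TPM. PRPF18, a factor of the second step, was under the filter at 0.15 to 0.34 TPM. The minor spliceosome, which removes a rare class of introns, was uneven: SNRNP25 was 52.9 to 59.3 TPM, SNRNP35 was 7.67 to 10.4 TPM, and SNRNP48 was 0.49 to 0.65 TPM.

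LSM2 to LSM8 form the ring of U6 RNA in the nucleus, and LSM1 takes the place of LSM8 in the cytoplasmic ring that promotes mRNA decay. LSM4 was 461 and 463 TPM in control and 478 and 473 TPM in KO+OE, and LSM7 was 483 and 436 TPM in control and 457 and 438 TPM in KO+OE. LSM4 and LSM7 overlapped and were the highest. LSM2 lay between 207 and 215 TPM, and LSM6 between 38.1 and 43.6 TPM. LSM3, LSM1 and LSM5 lay between 9.97 and 13.4 TPM and overlapped as neighbours in the order. LSM8 was 0.70 and 2.08 TPM in control and 3.48 and 0.59 TPM in KO+OE. A single library was high in each group, and 3.08% of the 3796 genes within 2-fold of its mean level had a replicate difference as large as its 1.49 on the log2 scale. LSM1 was therefore 3.84 to 19.9 times LSM8 on the TPM scale. Their canonical transcripts differ in length, with 906 bases for LSM1 and 12384 for LSM8. Mean TPM multiplied by that length in kilobases was 10.4 for LSM1 and 21.2 for LSM8, so their order turned with the length. The range within the nuclear ring was 137-fold to 801-fold by library, and within the cytoplasmic ring, without LSM8, 43.97-fold to 47.4-fold.

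Base composition varied with the levels. Over the 52 members, the Spearman correlation of level with the share of codons that have G or C at the third position was 0.732 to 0.747 in the 4 libraries, and with the GC content of the transcript 0.741 to 0.748. With the length of the canonical transcript it was -0.449 to -0.435, and with coding length -0.129 to -0.117. For 44 members with a RefSeq promoter, the correlation with promoter GC content was 0.228 to 0.242. The 10 members with at most 40% G or C at the third codon position had a median of 9.37 TPM, the 22 from 40% to 60% had 28.9 TPM, and the 20 above 60% had 155 TPM. Over 10625 protein-coding genes tested the correlation was 0.249 to 0.261, and the medians of the same bands were 3.01, 6.93 and 13.9 TPM. For 10781 such genes it was 0.300 to 0.312 with GC content and -0.334 to -0.329 with transcript length. These genes all had a mean of 1 TPM or more, and over the 49 members that did too the correlation was 0.708 to 0.723 with G or C at the third position and 0.710 to 0.718 with GC content. SNRPB, SNRPC, SNRPG and SNRPF stood high for their composition, at 52.4%, 49.1%, 42.1% and 39.5% G or C, and PRPF40B stood low, at 66.6%. SNRPB, with a mean of 682 TPM, was the highest of the 22 members from 40% to 60%. The points share their libraries and genes are not independent replicates, so these are descriptions without a test. Whether base composition acted on the measured level was not tested.

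**Figure D4:**
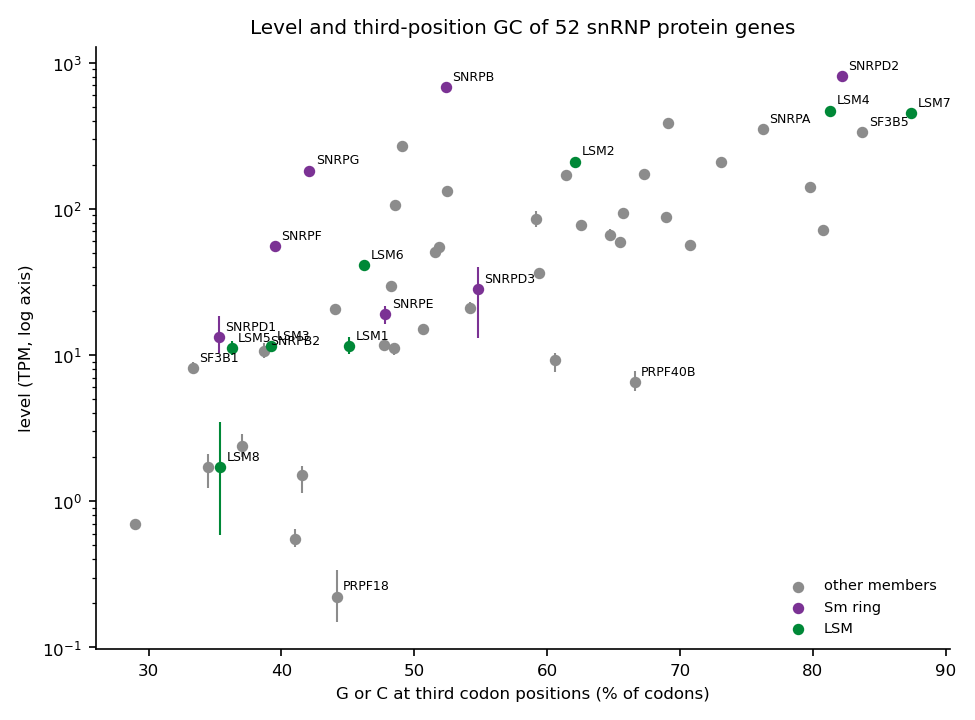
Mean level of each of the 52 genes in TPM (log axis) against the percent of codons with G or C at the third position, with a vertical line from the lowest to the highest library and the Sm ring and LSM genes coloured. The members above 60% have a median of 155 TPM and those up to 40% a median of 9.37 TPM.

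The groups were then compared with limma on log2(TPM + 1) across all 12319 genes, of which 49 were members described here. None of the 49 passed an adjusted p of 0.05, where 1 gene, or 0.00812% of all genes, did. At an unadjusted p under 0.05 there were 2 members (4.08%), against 5.33% of all genes. Both were higher in KO+OE, where 2.26% of all genes were called higher and 3.06% lower. The groups did not overlap for 16 members, or 32.7%, against 34.1% of all genes tested. Of the 16, 8 were higher and 8 lower, with 14.5% and 19.6% of all genes in those directions. The median log2 fold change was 0.0022 over the members and -0.012 over all genes. It was above 0 for 26 members and below 0 for 23, and 37 were within 0.1 of 0.

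PRPF38A, a protein needed to activate the tri-snRNP, was 19.5 and 19.3 TPM in control and 22.4 and 23.1 TPM in KO+OE. Both KO+OE libraries were the higher ones, and the log2 fold change was 0.22 (SE 0.063, 95% confidence interval 0.06 to 0.38), with an unadjusted p = 0.0168 and an adjusted p = 0.928 from limma. PRPF38A lies on chromosome 1 from 52404602 to 52420836 (RefSeq, GRCh38.p14). Its paralog PRPF38B was 1.75 and 1.14 TPM in control and 1.47 and 1.65 TPM in KO+OE, so that its groups overlapped. LSM1 was 10.2 and 10.5 TPM in control and 13.4 and 11.8 TPM in KO+OE, with a log2 fold change of 0.25 (interval 0.01 to 0.50), an unadjusted p = 0.0452 and an adjusted p = 0.928 from limma. LSM5, a member of both LSM rings, was 12.5 and 11.7 TPM in control and 10.7 and 9.97 TPM in KO+OE, and its log2 fold change was -0.21 (interval -0.43 to 0.02). PRPF40B, a U1-associated splicing factor, was 7.72 and 6.83 TPM in control and 5.63 and 6.02 TPM in KO+OE. Both KO+OE libraries were the lower ones, and the log2 fold change of PRPF40B was -0.28 (SE 0.11, interval -0.56 to 0.01, limma adjusted p = 0.931).

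The largest log2 fold change belonged to SNRPD3, at 0.80 with an interval of -0.17 to 1.76 and a limma adjusted p = 0.931. Control 1 set it: the log2 fold change was 0.24 without that library and 1.35 without control 2, where the unadjusted p was 0.0035 in limma. PRPF4B, a kinase that acts on the tri-snRNP, was 1.23 and 1.64 TPM in control and 1.93 and 2.09 TPM in KO+OE, and its log2 fold change was 0.31 (interval -0.14 to 0.76). It was 0.19 without control 1 and 0.43 without control 2. Without control 1 none of the 49 had an unadjusted p under 0.05 in limma. Without control 2 the 1 member under it was SNRPD3. The log2 fold change of PRPF38A lay between 0.20 and 0.25 whichever library was left out, and its unadjusted p was under 0.05 in 1 of those 4 fits, without KO+OE 1. That of LSM1 lay between 0.17, without KO+OE 1, and 0.34, without KO+OE 2, and its unadjusted p was under 0.05 in the latter fit only. The sign of the fold change turned for 29 of the 49 members when 1 library was left out. No such count was made over all genes, so the 29 cannot be called many or few.

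For most members the intervals were narrow. The 95% interval lay within 2-fold in either direction for 47 of the 49, within 1.5-fold for 44 and within 1.2-fold for 29, against 11409, 8750 and 3270 of the 12319 genes. The exceptions at 2-fold were SNRPD3 and LSM8, the latter with a log2 fold change of 0.22 and an interval of -1.24 to 1.68. The intervals of all 3 U1 and all 6 U5 genes lay within 1.2-fold. The shares of members and of all genes were not matched for level, and members stood higher. From 10 to 100 TPM, the median log2 difference between replicates was 0.093 in control and 0.082 in KO+OE for members, against 0.082 and 0.080 for all genes. At 100 TPM and over it was 0.050 and 0.033 for members, against 0.038 and 0.043. From 1 to 10 TPM it was 0.243 and 0.101, against 0.172 and 0.167. The plot of fold changes shows the 2 members with an unadjusted p under 0.05 among the rest.

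**Figure D5:**
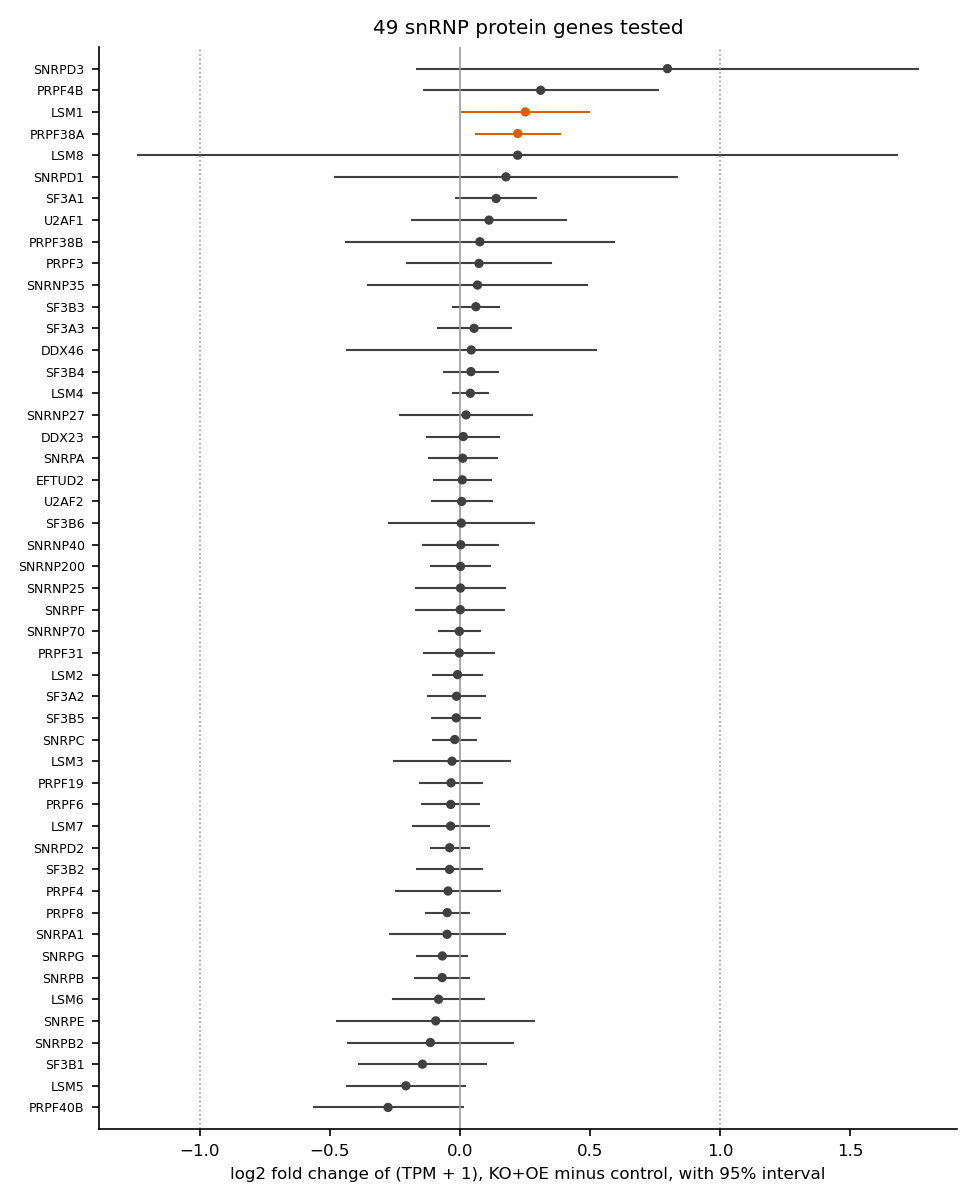
Log2 fold change of (TPM + 1), KO+OE minus control, with limma's 95% confidence interval for the 49 genes tested, sorted by value, with an unadjusted p under 0.05 in orange and dotted lines at a 2-fold difference. The values run from -0.28 (PRPF40B) to 0.80 (SNRPD3), and 37 of the 49 are within 0.1 of 0.

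The proportions within complexes were also set side by side. The level relative to the median of the complex was taken for 36 subunits of 8 complexes, with LSM subunits of both rings counted once. It is 0 by construction for the middle subunit of an odd number. It differed between the groups by more than the larger difference between replicates for 9. These were SNRPB, SF3A2, SF3B5, SF3B1, PRPF6, EFTUD2, LSM4, LSM1 and PRPF31. PRPF6 and EFTUD2, the middle subunits of U5, mirror each other by construction, at -0.022 and 0.022. For PRPF31 the values were 0.0462 and 0.0461. No share over all genes was computed, so the 9 cannot be called many or few. LSM1 differed by 0.36 in the cytoplasmic ring, where the larger difference between replicates was 0.056. For SF3B1 the relative level differed by -0.21, against a replicate difference of 0.099. SNRPD3 differed by 0.83, less than its replicate difference of 1.26. A relative level moves with that median as well as with the gene named, and these values were not tested.

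Other genes of the pathway were counted from a list of spliceosome and snRNP assembly factors. The list held 91 genes of the table, 83 were tested, and none passed an adjusted p of 0.05 or an unadjusted p of 0.05 in limma. Their median log2 fold change was 0.0023, with 42 above 0 and 41 below. The smallest unadjusted p was that of PPIE, a cyclophilin of the activated spliceosome, which was 65.4 and 64.1 TPM in control and 62.2 and 57.2 TPM in KO+OE (log2 fold change -0.12, unadjusted p = 0.0968, limma adjusted p = 0.931). It was followed by GEMIN4, LUC7L, SMN1 and PPIL2, of which GEMIN4 and SMN1 encode parts of the SMN complex that assembles Sm rings. SMN1 and SMN2 are nearly identical, so the level of either is uncertain.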

How the data were processed

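RNA from 4 libraries of H9 cells was selected for poly(A) tails and sequenced in pairs on a NovaSeq. The authors' processing notes, per the labels, name HISAT2, Subread, featureCounts, DESeq2 and the build hg38, with no versions or roles. The authors deposited a table of 60671 genes without a unit in its header. It was read as TPM, since each deposited column holds decimals and sums to between 986853 and 987078. The transcript lengths used by the authors are not given in the sources used here. Further columns with values of single samples numbered 0. Columns whose names hold c or f were taken as control and KO+OE from the sample titles.

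The 12319 genes whose mean over the libraries reached 1 TPM were compared on log2(TPM + 1), which understates changes of low genes, with limma 3.58.1 (lmFit, eBayes with a mean-dependent prior, two-sided) in R 4.3.3. DESeq2, which the authors used, needs counts and was not used here. P-values were adjusted by Benjamini-Hochberg over all genes tested. The step was first tested on simulated data. Of the 53 members, 1 is not reported here, for a reason unrelated to its values. It was left out after results were known, and all counts over members are without it. Members and lists were chosen with earlier results of these data known.

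Members with full statistics were those with an unadjusted p under 0.05, the 5 largest absolute fold changes, those without overlap that differed by over 0.2, and those that 1 library decides. Of other spliceosome genes, the 5 smallest p were named. AP000356.5, U2AF1L5, SNRPN and PRMT5 were added to the text once their values were known. In complexes, the highest and lowest subunits were named. Gene positions came from RefSeq (GRCh38.p14, 52 of 52 matched) and transcripts from GENCODE release 44 on GRCh37. Words of 50 bases were searched in the GRCh37 genome. Alternatives were other pseudocounts, filters and scalings, limma with a constant prior, a fit blocked on the replicate number, and fits without 1 library at a time. Python 3.11.15, pandas 2.3.3, numpy 2.4.6, scipy 1.17.1 and matplotlib 3.10.9 were used.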

Additional observations from a re-analysis of the deposited data

How the results depend on the processing

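No member and no other spliceosome gene passed an adjusted p of 0.05 in limma under any alternative tried. At an unadjusted p under 0.05 in limma there were 3 members when 0.1 was added to TPM before the logarithm and 1 when 5 was added. The other fits of all 4 libraries had 2, though not always the same 2. With a constant prior variance LSM1 no longer came under 0.05 and PRPF40B did. The share over all genes was counted for the main fit only, at 5.33%, so these counts cannot be called many or few. None of the other spliceosome genes came under 0.05 in a fit of all 4 libraries. The median log2 fold change of the members was 0.0148 with median-ratio rescaling, 0.0142 with quantile normalization, 0.0164 with rescaling to nuclear genes, -0.0023 with the filter at 5 TPM, and -0.0115 to -0.0054 with 1 library left out. The cause was not tested.

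Single genes changed sign without 1 library. The log2 fold change of NUDT21 was -0.012 when control replicate 2 was left out and at most 0.066, when control replicate 1 was. That of LSM8 was -0.21 without control replicate 1 and lay between -0.53 (KO+OE replicate 1 left out) and 0.97 (KO+OE replicate 2 left out). That of SNRPD1 lay between -0.21 and 0.56, for the same libraries. That of U2AF1 was -0.00054 without KO+OE replicate 2 and lay between -0.018 (control replicate 2 left out) and 0.24 (control replicate 1 left out). The highest Sm gene was 56.8 to 69.9 times the lowest with 1 library left out. A group left with 1 library was assumed to vary like the other.

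Replicate numbers did not pair the libraries, with a correlation of same-numbered deviations of -0.049. With the replicate number as a block, 2 members had an unadjusted p under 0.05 and 0 an adjusted p under 0.05. In that fit SNRPD3 came under an unadjusted p of 0.05 and LSM1 no longer did. Depth is unknown, so counting error could not be given.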

Other observations

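The table held 68 rows named as pseudogenes of members, of which 20 belonged to SNRPG, 18 to SNRPC and 10 to SNRPE, and 66 were listed at 0 in all 4 libraries. SNRPGP15 was listed at 2.24 TPM in KO+OE replicate 2 and at 0 in the others, and a pseudogene of SF3A3 reached 0.04 TPM. PRMT5, the methyltransferase that modifies Sm proteins before ring assembly, was 182 TPM in control replicate 1, 110 TPM in control replicate 2, and 111 and 104 TPM in KO+OE. Its high value and the low value of SNRPD3 fell in the same library, and a link between them was not tested.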
